A study of Homo sapiens with 12 samples.

Results

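HepG2, a human liver tumour line, was grown in media that differed in their trace elements. The mean change in 2 trace-element-depleted media was measured against the complete medium. The samples were chosen by medium: 3 libraries of Plasmax-TE, which is Plasmax made without its trace elements, and 3 of Plasmax-TE+Fe, the same medium with iron returned, together against 3 of Plasmax, a formulation modelled on the nutrients of human plasma. These are 9 of the 12 libraries of the series. The other 3, in EMEM, entered the filter of genes, the scaling of libraries and the estimate of the spread, but no comparison. All cells were wild type, all media held 10% heat-inactivated fetal bovine serum, and cells were seeded in EMEM, moved to their medium 24 h later, given fresh medium after 48 h and harvested 96 h after the move. The labels name neither the trace elements left out nor the form of the iron, and serum carries trace elements of its own, so depleted here means not supplied by the basal medium. The labels do not say whether the libraries of a medium were separate cultures, and a p-value here reflects only how far libraries spread, which may be technical.

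Trace elements act in cells mainly as parts of proteins. Zinc is sensed by the transcription factor MTF1, which binds short metal response elements in the promoters of metallothioneins, the small proteins that buffer zinc and copper. Selenium is built into selenoproteins as the amino acid selenocysteine, and the messengers of some of them are lost first when selenium is scarce. Iron is carried by transferrin and stored in ferritin, and hepatocytes report iron status to the body through the hormone hepcidin, whose gene HAMP is driven by bone morphogenetic protein (BMP) and SMAD signalling.

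The promoters of a pair of metallothioneins and of HAMP are shown because the metallothioneins and HAMP changed in the depleted media. They were taken from RefSeq on GRCh38.p14, each with 250 bases before and 50 after the transcript start, on the plus strand, at chr16:56608334-56608633 for MT2A, chr16:56682220-56682519 for MT1X and chr19:35282278-35282577 for HAMP. Capitals mark the metal response element core in the metallothioneins (TGCGCNC or TGCACNC, on either strand) and the BMP response element core in HAMP (GGCGCC, which reads the same on both strands).
MT2A: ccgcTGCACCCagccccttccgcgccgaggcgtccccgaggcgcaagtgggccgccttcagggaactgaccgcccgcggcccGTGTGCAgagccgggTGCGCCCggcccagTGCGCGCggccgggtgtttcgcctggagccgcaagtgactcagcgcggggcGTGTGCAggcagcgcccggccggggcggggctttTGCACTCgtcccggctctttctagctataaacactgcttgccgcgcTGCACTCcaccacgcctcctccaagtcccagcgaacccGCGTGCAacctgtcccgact
MT1X: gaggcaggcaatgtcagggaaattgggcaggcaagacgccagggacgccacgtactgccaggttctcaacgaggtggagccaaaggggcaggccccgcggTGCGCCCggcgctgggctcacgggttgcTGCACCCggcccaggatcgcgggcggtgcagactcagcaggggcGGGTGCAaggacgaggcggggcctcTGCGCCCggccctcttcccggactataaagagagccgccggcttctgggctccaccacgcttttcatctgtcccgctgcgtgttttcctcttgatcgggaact
HAMP: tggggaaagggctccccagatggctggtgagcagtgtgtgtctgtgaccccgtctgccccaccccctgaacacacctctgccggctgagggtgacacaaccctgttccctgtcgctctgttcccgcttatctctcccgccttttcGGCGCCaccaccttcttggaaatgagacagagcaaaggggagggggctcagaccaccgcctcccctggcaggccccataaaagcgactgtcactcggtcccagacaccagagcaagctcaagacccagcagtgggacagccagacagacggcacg
MT2A held 8 matches of the metal response element core and MT1X held 4, against 3 or more in 2.27% of all 27305 promoters of this length and 3.43% of the 8225 of genes tested here. At least 1 was held by 29.3% of all promoters and 39.9% of those of genes tested. HAMP held 1 match of the BMP core, which begins at position -105 from the start, and 19.0% of all promoters and 31.7% of those of genes tested held at least one. The last match in MT2A, on the opposite strand, overlaps the letters GCGTG, the core bound by the aryl hydrocarbon receptor. CYP1A1, described below, held 1 GCGTG, which 36.3% of all promoters and 52.3% of those of genes tested held at least once. A match of letters is a description, not a measured site. Promoters were matched for 4 of the 8 genes looked for; MT1E, MT1F, MT1G and MT1A were not.

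Libraries held between 1562125 and 2379065 counts, so that 1 count was worth 0.420 to 0.640 CPM (counts scaled to a common library total), and only large changes could be seen in weakly expressed genes. All 8 hepatocyte markers looked for were present, ALB at 3890 to 10800 CPM, as were AFP and GPC3 of hepatoma cells. Of the markers of other cell types, 5 of 5 endothelial genes, 4 of 7 fibroblast genes (COL1A2, COL3A1, DCN and LUM) and 3 of 6 leukocyte genes (PTPRC, CD163 and CD3E) were not among the genes of the table, and COL1A1, CD68 and CD14 were, with too few counts to be tested. PDGFRB stood at 0.542 to 5.98 CPM, ACTA2 at 27.2 to 68.1 CPM with a log2 fold change of -0.76 (edgeR adjusted p = 0.0082), and LYZ at 739 to 1760 CPM with a log2 fold change of -0.09. The first principal component of the 9 libraries held 37.7% of the variance and placed Plasmax between -28.6 and -24.2. The libraries numbered 87 (Plasmax-TE replicate 1, at 39.6) and 88 (Plasmax-TE+Fe replicate 2, at 25.5) lay furthest from it, while Plasmax-TE replicates 2 and 3 stood at 14.8 and 15.8 and Plasmax-TE+Fe replicates 1 and 3 at -6.9 and -10.1. Some results that lean on the 2 outlying libraries are given with and without them.

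Hepcidin rose in both depleted media. HAMP (ENSG00000105697) stood at 8.15, 6.01 and 6.98 CPM in Plasmax, at 47.1, 95.3 and 99.5 CPM in Plasmax-TE and at 85.2, 64.8 and 79.2 CPM in Plasmax-TE+Fe. Every depleted library lay above every Plasmax library, and the media with and without iron overlapped. Its log2 fold change, the mean of both depleted media against Plasmax, was 3.48 ± 0.29 (SE), or 11.2-fold (edgeR quasi-likelihood test, Benjamini-Hochberg adjusted p = 4.5e-07). Without iron the log2 fold change was 3.52 ± 0.31 and with iron 3.44 ± 0.31. The difference between the depleted media was -0.08 ± 0.23, and did not pass the same edgeR test (adjusted p = 0.96).

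RAB3B (ENSG00000169213), a small GTPase of regulated secretion, fell in both media. It stood at 95.3, 110 and 106 CPM in Plasmax, at 24.4, 27.0 and 22.3 CPM in Plasmax-TE and at 32.3, 34.4 and 38.3 CPM in Plasmax-TE+Fe. The depleted libraries all lay below Plasmax, and those without iron lay below those with it. Its log2 fold change was -1.82 ± 0.14 (edgeR adjusted p = 9.4e-08), with -2.07 ± 0.17 without and -1.57 ± 0.16 with iron, and the difference between the depleted media, 0.50 ± 0.18, did not pass (edgeR adjusted p = 0.33). HSD17B2 (ENSG00000086696), which inactivates estradiol and testosterone by oxidation, rose from 29.5, 31.5 and 23.7 CPM in Plasmax to 101, 117 and 93 CPM in Plasmax-TE and 78.3, 102 and 79.7 CPM in Plasmax-TE+Fe. Again no depleted library reached into the Plasmax range, and the log2 fold change was 1.75 ± 0.16 (edgeR adjusted p = 2.2e-06), and the depleted media differed by -0.26 ± 0.16 (edgeR adjusted p = 0.66). HAMP, RAB3B and HSD17B2 kept their calls under all 20 alternatives run, with the log2 fold change of HAMP between 3.37 and 3.67, of RAB3B between -1.88 and -1.79 and of HSD17B2 between 1.63 and 1.83.

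**Figure D1:**
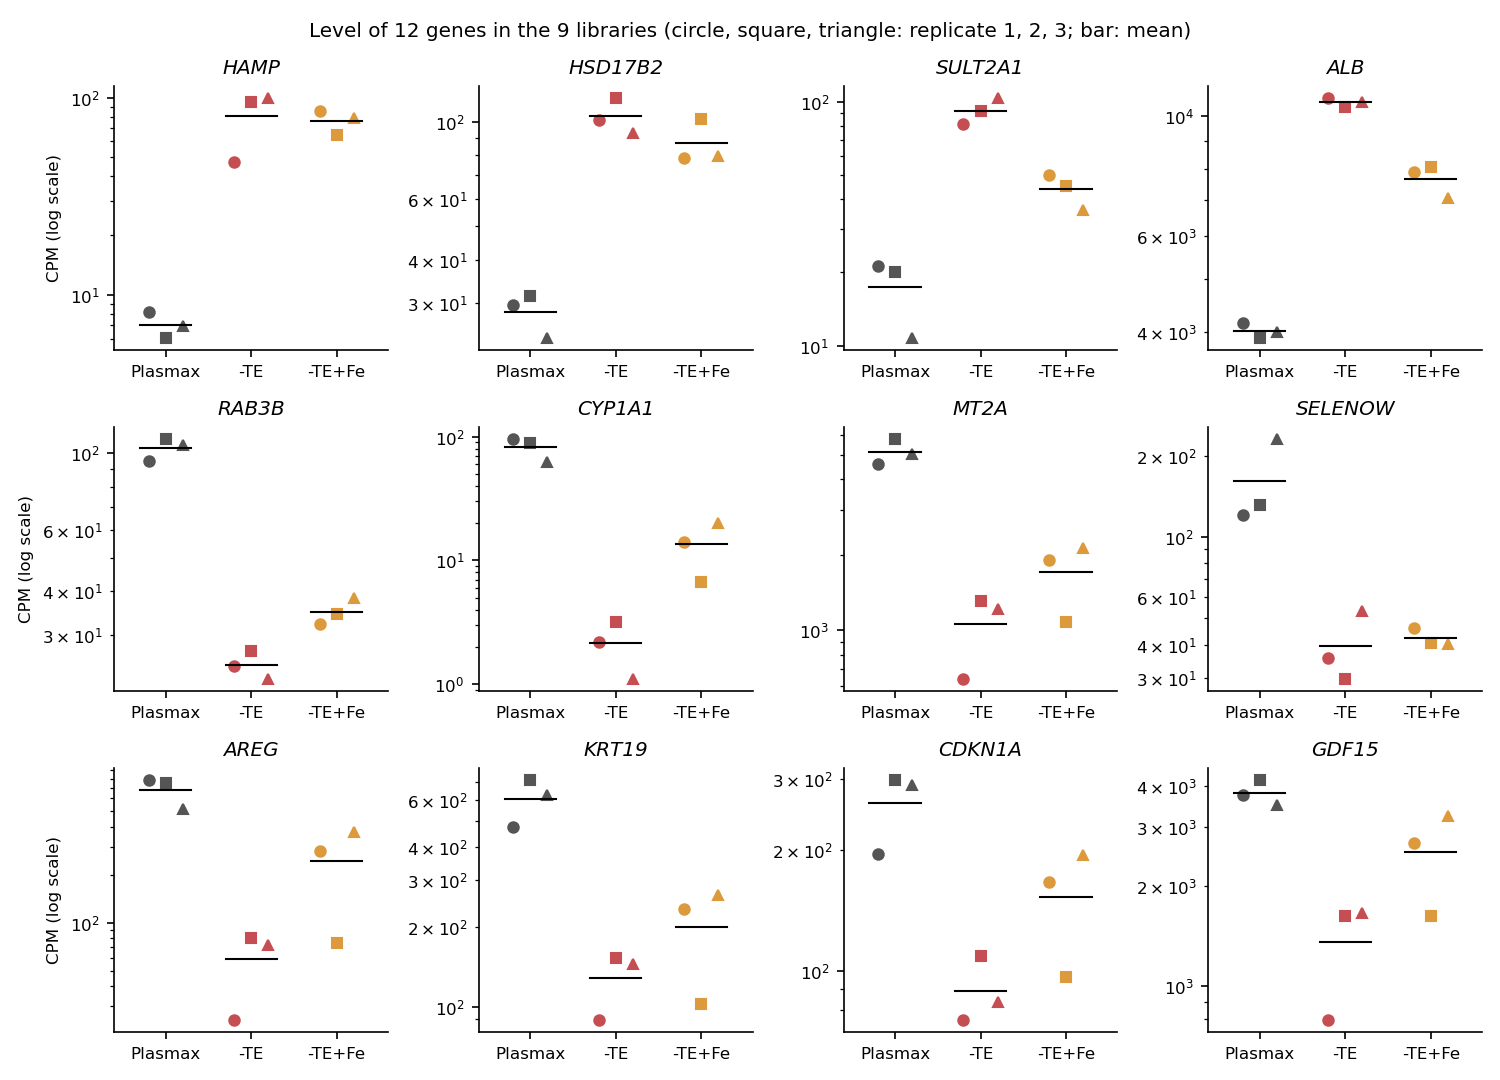
Levels of 12 genes in CPM (y axis, log scale, a separate scale for each gene) in the 3 libraries of Plasmax, Plasmax-TE and Plasmax-TE+Fe (x axis); circles, squares and triangles are replicates 1, 2 and 3 and bars are means. In the HAMP panel the depleted libraries sit between 47.1 and 99.5 CPM and Plasmax at 8.15 CPM or less; in AREG, KRT19, CDKN1A and GDF15 Plasmax-TE+Fe replicate 2 is the lowest library of its medium.

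Across the 10459 genes tested, 817 (7.81%) differed between the depleted media and Plasmax in the edgeR test, 377 higher (3.60%) and 440 lower (4.21%) in the depleted media. Of these, 246 (2.35%) changed by 1 or more on the log2 scale, 106 higher (1.01%) and 140 lower (1.34%). In 624 of the called genes (5.97% of genes tested) all 6 depleted libraries lay on 1 side of all 3 Plasmax libraries, 271 higher (2.59%) and 353 lower (3.38%); over all genes, called or not, 1239 (11.8%) did not overlap. The count of calls depended on the Plasmax libraries: it was 230 without Plasmax replicate 2 and 472 without Plasmax replicate 1. With the libraries of both depleted media entered as 1 group, so that the difference between them adds to the spread, it was 423, and with a block for runs of library numbers 1476. Of 101 named genes 42 lost their call without Plasmax replicate 2, among them GPX1, GPX3, NCOA4, ERBB3, PLAUR, RRM2B, C5, CDCA8, BIRC5, ANLN, CCN2, NDRG1, SLC2A3, PRLR, GPX7 and G0S2, described below. Set against Plasmax singly, Plasmax-TE had 1176 calls (11.2%) and Plasmax-TE+Fe 126 (1.20%), and both share the Plasmax libraries. A call among the 817 rests on the mean of both depleted media, and does not by itself show a change in each. In 149 of the 817 the log2 fold change was at least 1 in the same direction in both media.

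The depleted media were also tested against each other. The test of Plasmax-TE+Fe against Plasmax-TE called 27 genes (0.258%), 9 higher (0.0861%) and 18 lower (0.172%) with iron, and 12 of them were among the 817 (1.47%), 6 higher and 6 lower with iron. The count of 27 depended on single libraries: it was 229 without Plasmax-TE+Fe replicate 2 and 0 without Plasmax-TE replicate 2 or 3 or Plasmax-TE+Fe replicate 1 or 3. It was 99 without both outlying libraries, 152 with a block for runs of library numbers and 71 by DESeq2, against 0 in the edgeR fit to the 9 libraries alone, where 835 genes had an unadjusted p under 0.05. In the 12-library fit 240 of the 817 (29.4%) and 974 of all genes (9.31%) had an unadjusted p under 0.05 between the depleted media. Of the 377 higher genes 327 had a lower fitted level with iron than without, and of the 440 lower genes 391 had a higher one. Among the 817 the median absolute log2 fold change was 0.78 and the median absolute difference between the depleted media 0.301.

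**Figure D2:**
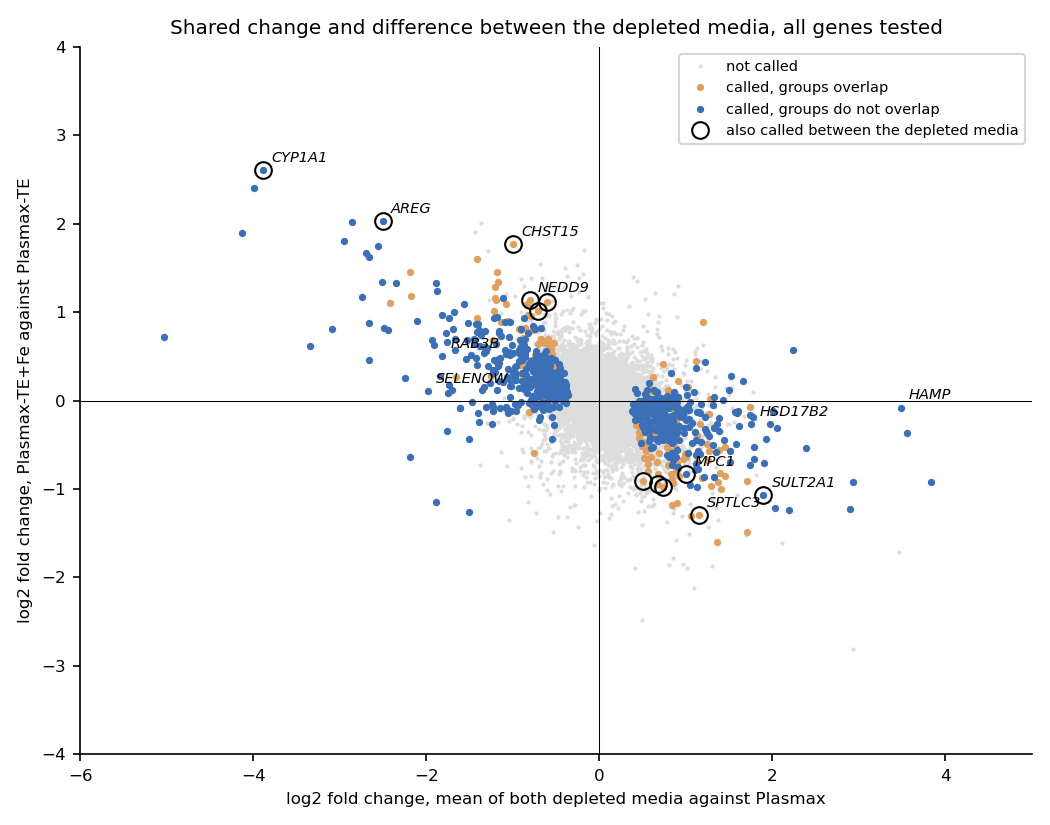
Each point is 1 of 10459 genes, with the log2 fold change of the mean of both depleted media against Plasmax on the x axis and of Plasmax-TE+Fe against Plasmax-TE on the y axis; blue points are called genes whose depleted and Plasmax libraries do not overlap, orange points called genes that overlap, and rings the 12 called genes that also differ between the depleted media (1 gene lies outside the plotted range). HAMP, HSD17B2 and SELENOW lie near 0 on the y axis, and CYP1A1 and AREG far above it.

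Metallothioneins fell, all 6 of 6 tested, with a median log2 fold change of -1.81 against 0.02 over all genes. Groups did not overlap in 5 of them, nor in 624 of all 817 called genes. MT2A (ENSG00000125148), whose promoter holds the most matches above, stood at 4610, 5770 and 5020 CPM in Plasmax, at 638, 1310 and 1220 CPM in Plasmax-TE and at 1900, 1080 and 2120 CPM in Plasmax-TE+Fe. Its highest depleted library was still below the lowest Plasmax library. MT2A had a log2 fold change of -1.94 ± 0.19 (edgeR adjusted p = 2.8e-06). MT1E went from 1250, 1390 and 1260 CPM in Plasmax to between 246 and 510 CPM in the 6 depleted libraries, with a log2 fold change of -1.74 ± 0.18, and MT1X from 31.4, 46.1 and 47.5 CPM to between 11.9 and 19.6 CPM, with -1.48 ± 0.19. MT1X had log2 fold changes of -1.47 ± 0.23 without and -1.48 ± 0.23 with iron. MT1G fell by 2.19 ± 0.23 and MT1F by 1.89 ± 0.20, and both had their lowest level in a library with iron. MT1A overlapped between groups (36.8 to 44.6 CPM in Plasmax, 16.3 to 36.8 CPM in the depleted libraries) and fell by 0.88 ± 0.18 (edgeR adjusted p = 0.0061). It lost its call without Plasmax replicate 2 and with the depleted media as 1 group, and the other 5 kept theirs under all alternatives. The MT1 genes resemble each other closely, and how surely their reads were split between them was not measured. None of the 6 differed between the depleted media in the edgeR test, where MT1F came closest (-1.15 ± 0.28, adjusted p = 0.091).

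Of 17 zinc transporters tested 1 rose and 0 fell, with a median log2 fold change of 0.22. Over all genes tested 3.60% rose and 4.21% fell, so that 1 call in a list of this size is near the background. The riser was SLC39A3, an importer of zinc into the cytosol, at 0.67 ± 0.19 (edgeR adjusted p = 0.035), which overlapped between groups. It was not called without Plasmax replicate 1 or 2, Plasmax-TE replicate 3, or Plasmax-TE+Fe replicate 1 or 2. Nor was it called with the 2 outlying libraries left out. SLC30A1, the zinc exporter of the plasma membrane and like the metallothioneins a target of MTF1, had a log2 fold change of -0.10 ± 0.14 (edgeR adjusted p = 0.70). In copper handling, also near the background, 1 of 14 members rose, CP, the copper-dependent ferroxidase ceruloplasmin (1.03 ± 0.24), and 1 fell, MT1X. CP was not called without Plasmax replicate 2 or 3.

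Selenoproteins split by member, with 3 of 18 tested higher and 2 lower and a median log2 fold change of 0.05. SELENOW (ENSG00000178980), a small thioredoxin-like selenoprotein, stood at 121, 131 and 231 CPM in Plasmax, at 35.7, 29.7 and 53.3 CPM in Plasmax-TE and at 46.0, 40.6 and 40.3 CPM in Plasmax-TE+Fe. The groups did not overlap and the media with and without iron did. SELENOW changed by -1.99 ± 0.19 on the log2 scale (edgeR adjusted p = 2.7e-06), with -2.04 ± 0.24 without and -1.93 ± 0.24 with iron. GPX1, the cytosolic glutathione peroxidase, fell from 104, 116 and 107 CPM to between 68.5 and 85.8 CPM (-0.52 ± 0.14, edgeR adjusted p = 0.024), by 0.52 ± 0.16 in each depleted medium. SELENOW and GPX1 are known as selenoproteins whose messengers fall when selenium is low. GPX4, the phospholipid hydroperoxide peroxidase, and TXNRD1, thioredoxin reductase, are better preserved in low selenium. They had log2 fold changes of -0.22 ± 0.15 and -0.08 ± 0.19, neither of which passed. These genes are only part of the 18 tested, of which 3 rose, and a role of selenium was not tested.

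The 3 selenoproteins that rose were GPX3, the secreted glutathione peroxidase, SELENOP, the plasma carrier of selenium, and SEPHS2, which makes the selenium donor for selenocysteine. GPX3 went from 14.5 to 16.8 CPM in Plasmax to 24.9 to 40.8 CPM (1.03 ± 0.21), and SEPHS2 from 145 to 154 CPM to 215 to 336 CPM (0.85 ± 0.14), neither with overlap. SELENOP had a log2 fold change of 0.60 ± 0.17 and overlapped, since libraries 87 and 88 (614 and 586 CPM) lay within the Plasmax range of 485 to 643 CPM. Of 9 genes of the selenocysteine machinery 0 were called in the edgeR test (2 at an unadjusted p under 0.05), with a median of 0.28. Without Plasmax replicate 2 the selenoprotein list had 1 member higher, SEPHS2, and 1 lower, SELENOW, and without Plasmax replicate 1 it had 3 higher and 1 lower.

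**Figure D3:**
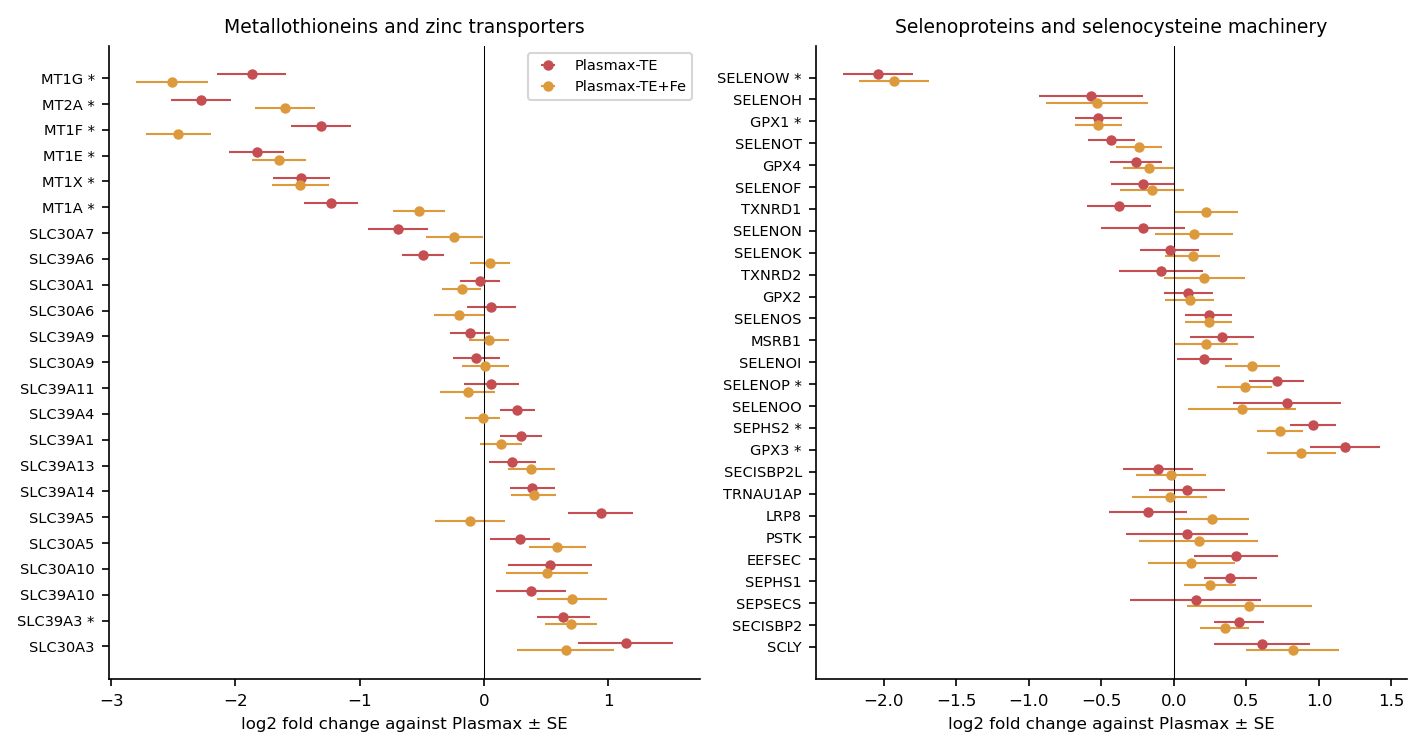
Log2 fold change against Plasmax ± SE (x axis) in Plasmax-TE (red) and Plasmax-TE+Fe (yellow) for each tested metallothionein and zinc transporter (left) and each selenoprotein and gene of the selenocysteine machinery (right); an asterisk marks genes called for the depleted media together. The 6 metallothioneins lie below 0 in both media, and SELENOW stands apart from the other selenoproteins at -2.04 and -1.93.

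Transferrin and some other iron genes rose, each by less than HAMP. Of 20 genes of iron uptake, storage and export 3 rose and 0 fell, with a median log2 fold change of 0.11. TF, transferrin, went from 831, 657 and 828 CPM in Plasmax to between 1170 and 1730 CPM in the depleted libraries without overlap (0.80 ± 0.14), and NCOA4, the receptor that carries ferritin to autophagy, from 220 to 243 CPM to 303 to 370 CPM (0.58 ± 0.12). The third was CP. Neither ferritin chain passed, with FTH1 and FTL both at -0.12 (SE 0.11 and 0.14), nor did TFRC, the transferrin receptor (-0.35 ± 0.20), SLC40A1, the iron exporter ferroportin (0.44 ± 0.28), or SLC11A2, the importer DMT1 (0.05 ± 0.14). Without Plasmax replicate 2 only TF was called on this list. Of 23 genes of hepcidin and BMP-SMAD signalling, HAMP alone was called, a share near the 3.60% higher over all genes tested. In this list 2 were called without any 1 of 3 depleted libraries (Plasmax-TE replicate 1, Plasmax-TE+Fe replicate 1 or 3). The BMP targets ID1 (0.44 ± 0.16), SMAD7 (0.33 ± 0.31) and SMAD6 (0.02 ± 0.29) did not pass, and the list median was 0.20.

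Other large falls included those of CYP1A1, XIRP2, MMP3, EMP1 and PMAIP1. CYP1A1 (ENSG00000140465), the cytochrome P450 induced by the aryl hydrocarbon receptor, stood at 95.9, 89.6 and 62.8 CPM in Plasmax, at 2.17, 3.15 and 1.09 CPM in Plasmax-TE and at 14.2, 6.68 and 19.9 CPM in Plasmax-TE+Fe. Both depleted media lay below Plasmax and those 2 did not overlap with each other. Its log2 fold change was -3.89 ± 0.26 (14.8-fold, edgeR adjusted p = 2.1e-08), and it was the only 1 of 8 tested targets of this receptor to be called. XIRP2, a muscle actin-binding protein, fell from 10.7 to 18 CPM to at most 2.99 CPM, 6 counts in the highest depleted library, and MMP3, stromelysin, from 11.2 to 18 CPM to at most 2.99 CPM, also 6 counts. EMP1, an epithelial membrane protein, fell by 3.10 ± 0.30 and PMAIP1 (NOXA), a pro-apoptotic BCL2 family member, by 2.7 ± 0.26. Further non-overlapping falls were those of TMEM156 (-2.56 ± 0.43), GPRC5A, an orphan receptor (-2.52 ± 0.37), G0S2, an inhibitor of the lipase ATGL (-2.49 ± 0.50; not called without Plasmax replicate 2), and TSC22D3, the glucocorticoid-induced leucine zipper (-2.11 ± 0.26).

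AREG and EREG, ligands of the epidermal growth factor receptor, fell, as did 6 genes that respond to ERK, a kinase below it. AREG, amphiregulin, stood at 783, 746 and 516 CPM in Plasmax, at 24.4, 80.0 and 72.3 CPM in Plasmax-TE and at 283, 74.5 and 370 CPM in Plasmax-TE+Fe. The depleted libraries lay below Plasmax, and with iron replicates 1 and 3 stood above all of Plasmax-TE. AREG had a log2 fold change of -2.51 ± 0.32 (edgeR adjusted p = 6.0e-05). EREG, epiregulin, fell by 2.42 ± 0.43 with overlap, and ERBB3, a receptor of the family, rose by 0.51 ± 0.13 without. In all, 2 of 8 ligands and receptors fell and 1 rose, and 0 rose without Plasmax replicate 2 or 3. Over all genes tested 4.21% fell and 3.60% rose. Of 24 ERK-responsive genes 6 fell and 0 rose, with a median of -0.34 (-0.54 without and -0.13 with iron). Groups did not overlap in 624 of all 817 called genes, nor in any of these 6. They included DUSP5, the nuclear ERK phosphatase (-2.36 ± 0.30), KLF6, an early response factor (-0.94 ± 0.17), PLAUR, the urokinase receptor (-1.33 ± 0.29), and CCND1, cyclin D1 (-0.48 ± 0.14). Without Plasmax replicate 2 the list had 3 members lower.

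Some targets of p53 and 3 inhibitors of cyclin-dependent kinases fell. Of 30 p53 targets 7 fell and 0 rose, against 4.21% lower and 3.60% higher over all genes tested. The median log2 fold change was -0.40, and 6 lay above 0. CDKN1A (p21) stood at 196, 299 and 290 CPM in Plasmax, at 75.3, 109 and 83.7 CPM in Plasmax-TE and at 167, 96.6 and 194 CPM in Plasmax-TE+Fe. The groups came close without overlap at Plasmax replicate 1 and Plasmax-TE+Fe replicate 3. The log2 fold change was -1.16 ± 0.18 (edgeR adjusted p = 4.0e-04). GDF15, a secreted stress cytokine, fell by 1.04 ± 0.20, RRM2B, the p53-induced ribonucleotide reductase subunit, by 0.78 ± 0.17, and PLK2, a stress-induced kinase, by 1.03 ± 0.22. CDKN2A (p16) fell by 1.39 ± 0.21 and CDKN2B (p15) by 2.18 ± 0.39, so that 3 of 7 kinase inhibitors fell and 0 rose. CDKN1B (p27) did not pass (0.27 ± 0.16). The 3 inhibitors were called in every alternative, and the p53 list had 3 members lower without Plasmax replicate 2.

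No gene of mitosis fell, and some rose. Of 32 G2/M and mitosis genes 8 rose and 0 fell, against 3.60% higher and 4.21% lower over all genes tested. The log2 fold change lay above 0 in 31 of them, and the list median was 0.61. CENPE, the kinetochore motor, stood at 21.3, 22.0 and 19.6 CPM in Plasmax, at 47.1, 48.6 and 41.9 CPM in Plasmax-TE and at 35.7, 37.0 and 38.3 CPM in Plasmax-TE+Fe. Each medium kept to its own range, with the libraries of both depleted media above Plasmax. Its log2 fold change was 0.97 ± 0.16 (edgeR adjusted p = 7.5e-04). CDCA8, of the chromosomal passenger complex (0.78 ± 0.18), BIRC5, survivin (0.65 ± 0.17), ANLN, anillin of the cleavage furrow (0.83 ± 0.23), and MKI67 (0.65 ± 0.18) also rose. None of 27 genes of S phase and DNA replication was called in the edgeR test (3 at an unadjusted p under 0.05), with a median of 0.07. The calls in mitosis were 2 with Plasmax replicate 1 left out, 1 with Plasmax replicate 2 left out, 4 with Plasmax-TE+Fe replicate 1 left out, 5 with Plasmax-TE replicate 2 left out, and 12 with the 2 outlying libraries left out.

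Some liver-specific genes rose. Of 40 hepatocyte secreted proteins and markers 16 rose and 0 fell, against 3.60% higher and 4.21% lower over all genes tested. The list median was 0.46, with 0.65 without and 0.25 with iron. ALB, albumin, stood at 4150, 3890 and 3990 CPM in Plasmax, at 10800, 10400 and 10600 CPM in Plasmax-TE and at 7880, 8050 and 7070 CPM in Plasmax-TE+Fe. No library of 1 medium reached the range of another, and the levels with iron lay between the others. The log2 fold change was 1.17 ± 0.10 (edgeR adjusted p = 6.2e-07), and the depleted media differed by -0.47 ± 0.11, which did not pass (edgeR adjusted p = 0.074). AFP, alpha-fetoprotein, rose by 1.14 ± 0.13, APOH, beta-2 glycoprotein I, by 0.86 ± 0.13 and RBP4, the retinol carrier, by 0.69 ± 0.12. Among the 8 hepatocyte markers looked for ALB and TF passed, and HNF4A (-0.01), TTR (0.15), APOB (0.17), APOA1 (0.29), FGB (0.45) and SERPINA1 (-0.64) did not. In RNA of whole cultures, a larger share of cells expressing a gene and more of its RNA per cell cannot be told apart. The list had 10 members higher without Plasmax replicate 1 and 7 without Plasmax replicate 2. In acute phase and complement 4 of 17 rose and 0 fell: SAA4 (1.36 ± 0.26), C4BPA, a complement inhibitor (1.16 ± 0.24), C5 (0.87 ± 0.21) and HAMP.

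Steroid, bile acid and drug metabolism had 6 of 27 members higher and 0 lower, against 3.60% higher and 4.21% lower over all genes tested. The list median was 0.56, and 10 members rose with the 2 outlying libraries left out. In the fit to the 9 libraries alone, without EMEM, 5 of 23 rose, with a median of 0.39. SULT2A1, the sulfotransferase of steroids and bile acids, stood at 21.3, 20.0 and 10.7 CPM in Plasmax, at 81.2, 91.7 and 104 CPM in Plasmax-TE and at 50.3, 45.2 and 35.9 CPM in Plasmax-TE+Fe. The 3 media did not overlap with one another. Its log2 fold change was 1.89 ± 0.20 (edgeR adjusted p = 6.5e-06). NR1H4, the bile acid receptor FXR, rose by 1.02 ± 0.19, and NR0B2, the repressor SHP that FXR induces, by 0.92 ± 0.18, both without overlap. In the breakdown of amino acids and the urea cycle 4 of 23 rose and 0 fell, among them GLUD1, glutamate dehydrogenase (0.62 ± 0.16), AHCY of the methionine cycle (0.42 ± 0.12) and HAL, histidine ammonia-lyase. The list had 1 call without Plasmax replicate 1, 1 without Plasmax replicate 2 and 2 without Plasmax replicate 3.

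Among gluconeogenesis and FOXO targets 4 of 16 rose and 3 fell, against 3.60% higher and 4.21% lower over all genes tested. G6PC, the last enzyme of glucose release, stood at 13.8, 4.51 and 1.40 CPM in Plasmax, at 40.1, 38.2 and 37.5 CPM in Plasmax-TE and at 24.5, 27.8 and 27.4 CPM in Plasmax-TE+Fe. The Plasmax libraries spread the widest, and all depleted libraries were higher, with a log2 fold change of 2.39 ± 0.34 (edgeR adjusted p = 2.0e-04). SLC37A4, the glucose-6-phosphate transporter that works with it, rose by 0.89 ± 0.21, and IGFBP1, a secreted binder of insulin-like growth factors, by 1.20 ± 0.22 with Plasmax replicate 1 (2370 CPM) inside the depleted range. TXNIP, which restrains glucose uptake, fell by 0.70 ± 0.15, TRIB1 by 0.80 ± 0.18 and FOXO1 by 0.47 ± 0.14. The list had 2 members higher and 1 lower without Plasmax replicate 2, and 3 higher and 1 lower without Plasmax replicate 1.

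Further large rises included those of MAT2A, KHK and LOX. MAT2A, which makes S-adenosylmethionine, stood at 53.3, 42.6 and 53.5 CPM in Plasmax, at 216, 201 and 225 CPM in Plasmax-TE and at 135, 309 and 89.1 CPM in Plasmax-TE+Fe. All depleted libraries were higher, with Plasmax-TE+Fe replicate 2 the highest. Its log2 fold change was 1.97 ± 0.29 (edgeR adjusted p = 2.7e-04), and 1.64 without the 2 outlying libraries. KHK, ketohexokinase of fructose use, rose by 1.78 ± 0.24, NAALADL1, a peptidase, by 2.19 ± 0.32 and PRLR, the prolactin receptor, by 2.03 ± 0.44. LOX, the copper-dependent lysyl oxidase that crosslinks collagen (2.23 ± 0.43), PCOLCE2 (2.00 ± 0.38) and PCOLCE (1.79 ± 0.33), enhancers of procollagen processing, also rose. So did GPX7, a peroxidase of the endoplasmic reticulum (2.05 ± 0.47). LOX, PCOLCE2, PCOLCE and GPX7 each had at most 9 counts in any Plasmax library. The size of those changes is therefore imprecise. GPX7 was not called without Plasmax replicate 2 or 3, nor PRLR without Plasmax replicate 2.

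SNORD13, a small nucleolar RNA, HAL and KNG1, kininogen, were highest in the 2 outlying libraries, 87 and 88. SNORD13 stood at 12.1 to 37.0 CPM in Plasmax, at 1020 and 543 CPM in these 2 libraries and at 61.1 to 169 CPM in the other 4. With and without the 2 libraries its log2 fold change was 3.83 and 2.05, that of HAL 3.55 and 2.32, and that of KNG1 2.90 and 2.09. Without them SNORD13 and KNG1 passed (edgeR adjusted p = 5.9e-04 and 0.0074) and HAL did not (0.066). SNORD13 was not called without Plasmax replicate 2 or 3, KNG1 without Plasmax replicate 2 or by limma-voom, and HAL without any 1 Plasmax library, without Plasmax-TE+Fe replicate 2 or by limma-voom. HAL and KNG1 had at most 3 counts in any Plasmax library, so their folds are uncertain.

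**Figure D4:**
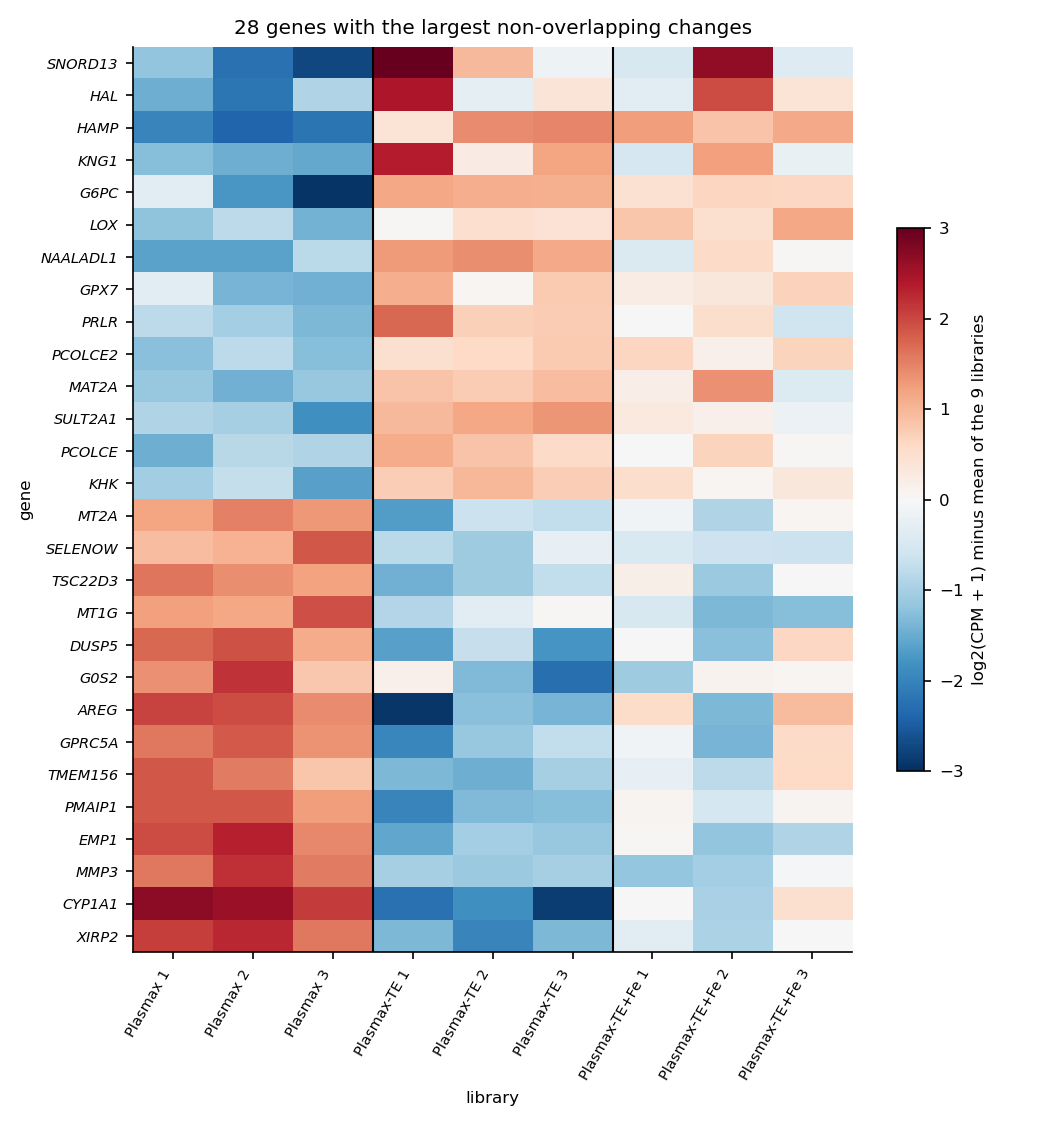
Log2(CPM + 1) minus the mean of the 9 libraries (colour, blue lower and red higher, limits -3 and 3) for the 14 largest rises and 14 largest falls without overlap (rows), by library (columns; black lines part the media). SNORD13, HAL and KNG1 are reddest in Plasmax-TE replicate 1, and SNORD13 and HAL also in the second library with iron; HAMP is red and SELENOW blue in all 6 depleted libraries.

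Genes of the cytoskeleton, keratins and junctions fell in 11 of 32 cases and rose in 0, with a median log2 fold change of -0.31. S100A11, a calcium-binding protein of the cortex, stood at 74.6, 140 and 80.1 CPM in Plasmax and between 16.2 and 46.8 CPM in the depleted libraries, without overlap (-1.78 ± 0.25). EZR, ezrin, which ties actin to the membrane, had log2 fold changes of -0.79 without and -0.76 with iron. TAGLN2, transgelin 2, fell by 1.23 ± 0.22 and TUBB6, a tubulin, by 0.82 ± 0.15, and 6 members fell without Plasmax replicate 2. Of 7 progenitor and biliary markers 3 fell. KRT19, a keratin of bile duct cells, stood at 473, 712 and 625 CPM in Plasmax, at 88.8, 152 and 145 CPM in Plasmax-TE and at 233, 102 and 263 CPM in Plasmax-TE+Fe. All depleted libraries were lower, and its log2 fold change was -1.91 ± 0.21 (edgeR adjusted p = 1.3e-05). SOX9 and CLDN4 fell by 0.52 ± 0.14 and 0.60 ± 0.17 with overlap, and were not called without Plasmax replicate 2, Plasmax-TE replicate 3 or Plasmax-TE+Fe replicate 1. Of the RAB GTPases, near the background of 4.21% lower and 3.60% higher, 2 of 39 fell, RAB3B and RAB10 (-0.68 ± 0.17), and RAB32 rose. RAB3B alone was called without Plasmax replicate 1 or 2, and RAB32 was not called with the 2 outlying libraries left out.

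Some genes of the stress and hypoxia lists fell. Of 36 genes of ATF4 and the integrated stress response 5 fell and 1 rose, with a median of -0.24 (-0.41 without and -0.06 with iron). Over all genes tested 4.21% fell and 3.60% rose, so that 1 rise in a list of this size is near the background. ATF3 fell by 1.45 ± 0.27 without overlap. DDIT4, an inhibitor of mTORC1 (-0.84 ± 0.22), overlapped, because 2 libraries with iron lay within its Plasmax range of 99.1 to 120 CPM. With any 1 Plasmax library left out 2 fell and 0 rose, and 3 fell without Plasmax-TE replicate 2. Of 28 targets of hypoxia-inducible factor 4 fell and 2 rose, with a median of -0.1 (-0.28 without and 0.15 with iron). NDRG1 (-0.91 ± 0.19) and the glucose transporter SLC2A3 (-1.14 ± 0.24) were among those that fell. On this list 0 fell and 1 rose without Plasmax replicate 2, and 2 fell without Plasmax replicate 1 or 3 or Plasmax-TE replicate 2. In lysosome and autophagy 4 of 21 fell and 0 rose: GABARAPL1, an ATG8 protein (-1.15 ± 0.17), LAMP1 (-0.60 ± 0.11), MAP1LC3B and SQSTM1. The first and second kept their calls in every alternative, and the list had 2 lower without Plasmax replicate 1 or 2 or Plasmax-TE replicate 3. Among TGF-beta responsive genes 3 of 16 rose, including THBS1, thrombospondin (1.11 ± 0.20), and CCN2 (0.91 ± 0.20). In this list 2 fell, CDKN2B and ACTA2, but 1 rose and 1 fell without Plasmax replicate 2. The list median was -0.19 without and 0.08 with iron.

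Several lists had shares of calls near or under the background of 3.60% higher and 4.21% lower. In the edgeR test cholesterol synthesis had 0 of 23 called (9 at an unadjusted p under 0.05; 2 called without Plasmax replicate 3), with a median log2 fold change of 0.56 in Plasmax-TE and 0.05 in Plasmax-TE+Fe. Fatty acid synthesis had 0 of 16 and glycolysis 0 of 15 called (2 and 3 at an unadjusted p under 0.05). NRF2 targets had 1 of 21 lower, the unfolded protein response 1 of 20 higher (DNAJB9), and fatty acid oxidation 1 of 21 higher (HADH) and 1 lower (ACSL1). Each of these single calls was lost in at least 1 alternative. With the 2 outlying libraries left out 3 NRF2 targets rose and 1 fell.

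**Figure D5:**
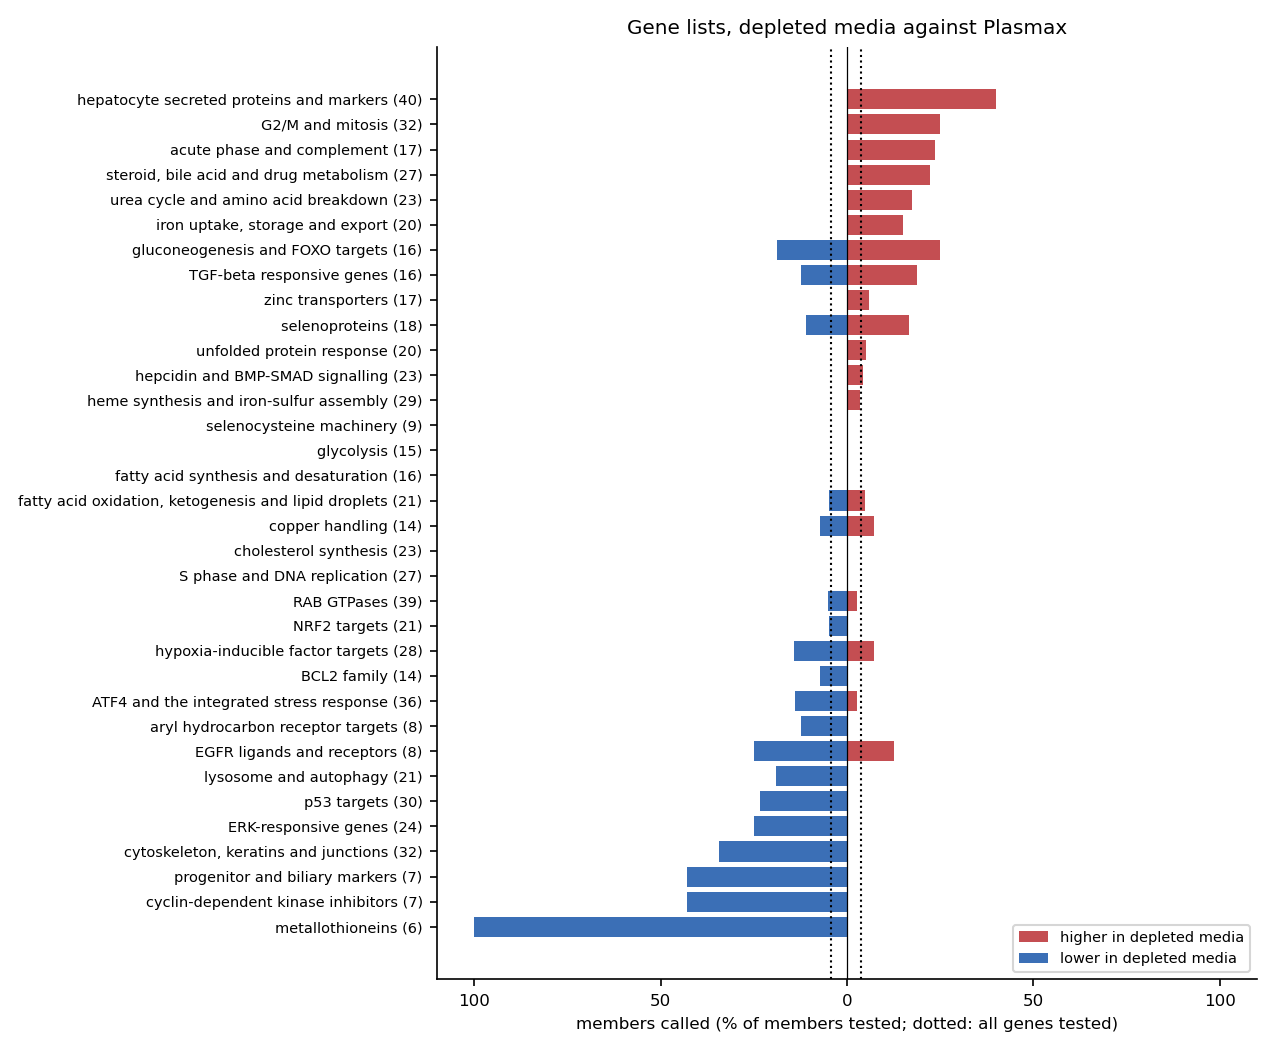
Share of tested members called higher (red, to the right) and lower (blue, to the left) in the depleted media for 34 gene lists, with the number tested in brackets; dotted lines mark the shares over all genes, 3.60% and 4.21%. All 6 metallothioneins are lower, and 16 of 40 hepatocyte genes are higher.

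Of the 12 called genes that also differed between the depleted media, 4 did not overlap with Plasmax: CYP1A1, AREG, SULT2A1 and MPC1, a subunit of the mitochondrial pyruvate carrier. Their changes were smaller with iron, with log2 fold changes of -5.19 and -2.59 for CYP1A1 without and with iron, -3.52 and -1.49 for AREG, 2.43 and 1.36 for SULT2A1 and 1.42 and 0.58 for MPC1. The other 8 overlapped with Plasmax. NEDD9, a scaffold of focal adhesions, stood at 180 to 188 CPM in Plasmax, at 53.1 to 85.4 CPM in Plasmax-TE and at 104 to 190 CPM in Plasmax-TE+Fe. JAG1, a Notch ligand, had log2 fold changes of -1.16 and -0.04, CHST15, a chondroitin sulfotransferase, -1.89 and -0.12, and TNFRSF12A, the TWEAK receptor, -1.22 and -0.20. SPTLC3, of sphingolipid synthesis (1.80 and 0.50), SLC13A5, a citrate importer (1.23 and 0.25), AMDHD2, of amino sugar breakdown (1.15 and 0.21), and RHBG, an ammonium transporter (0.96 and 0.05), were higher without iron. None of the 10 such differences examined under the alternatives kept its call in all of them. RHBG also lost its call against Plasmax in 11 alternatives, among them that without the 2 outlying libraries.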

How the data were processed

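HepG2 total RNA was sequenced from the 3′ end of messengers with QuantSeq, per the labels' protocols. Tools named in the submitters' processing notes are STAR 2.7.5b, featureCounts 1.6.3, cutadapt 1.16, FastQC 0.72 and limma 3.40.6, with the build hg19; strand setting and gene annotation are not given in the sources used here. Raw counts per gene were deposited by the authors. Of 10994 entries 54 repeated another Ensembl identifier with identical counts and were dropped, leaving 10940 genes, each with at least 4.04 CPM in its third-highest library. With edgeR 4.0.16, filterByExpr (minimum count 10, minimum total 15) left 10459 genes, TMM factors scaled the libraries, and 1 quasi-likelihood model of the 4 media used all 12 libraries (residual df 8). Contrasts, two-sided, were the mean of both depleted media minus Plasmax, each depleted medium minus Plasmax, and Plasmax-TE+Fe minus Plasmax-TE, called at an adjusted p under 0.05. SE is the absolute log2 fold change over the square root of F. On data simulated for the depleted media against Plasmax over 10304 genes, 77 of 100 genes changed by a log2 fold of 1 were recovered. Of 100 changed by 0.5 it was 16, with 7 false calls in 100. The simulated libraries were independent, with no effect of runs and no difference between the depleted media. These rates may therefore not hold for the reported calls.

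The samples and the 34 gene lists were chosen with earlier results of these data known. Named by rule are HAMP, RAB3B and HSD17B2, the 14 highest and 14 lowest log2 fold changes among called genes without overlap and a mean of at least 5 CPM, every metallothionein, up to 4 called members of lowest p of each other list, and, among called genes, the 5 highest and 5 lowest that passed between the depleted media. Not all are described, and the remaining list members, MPC1, TNFRSF12A and the plotted genes were picked after their values were seen. As alternatives, DESeq2 and limma-voom replaced edgeR, and RLE factors, unscaled totals, other filters, blocks for replicate number or runs of library numbers, the 9 libraries alone, both depleted media as 1 group, each library left out and the 2 outlying libraries left out were tried. Some list members are not reported here. Whether replicate numbers pair the libraries was checked from the correlation of their deviations from the group means.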

Additional observations from a re-analysis of the deposited data

Results flagged for a closer look

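In 4 of 101 named genes 1 of the 6 depleted libraries lay far from the other 5 by Dixon's criterion. Chance meets it in about 1 of 20 groups drawn from 1 normal population. The 6 libraries came from 2 media and were compared in CPM, so that rate may not hold here. MMP3 stood at 2.99 CPM in Plasmax-TE+Fe replicate 3 against 0.86 to 1.09 CPM in the other depleted libraries. EMP1 stood at 8.60 CPM in Plasmax-TE+Fe replicate 1 against 2.17 to 3.98 CPM. CDKN2B stood at 20.9 CPM in Plasmax-TE+Fe replicate 3 against 2.06 to 7.31 CPM. ACTA2 stood at 60.4 CPM in Plasmax-TE replicate 3 against 27.2 to 39.6 CPM.

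In 10 named genes the depleted media differed from each other by the edgeR test of Plasmax-TE+Fe against Plasmax-TE. The naming rule took them because they passed this test, so that the count is no result in itself. None kept this call under all alternatives, and the edgeR fit to the 9 libraries alone called 0 genes. With iron CYP1A1 stood higher by 2.6 on the log2 scale, AREG by 2.03, CHST15 by 1.77, NEDD9 by 1.13 and JAG1 by 1.12. The log2 fold change with iron against without was -1.29 for SPTLC3, -1.07 for SULT2A1, -0.98 for SLC13A5, -0.94 for AMDHD2 and -0.91 for RHBG.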

How the results depend on the processing

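Of 101 named genes, 54 kept their call against Plasmax under every alternative that gave them a value. Of these, XIRP2, MMP3 and TMEM156 had a value in 19 of the 20 alternatives. The other 47 named genes lost their call under at least 1 alternative, and 0 reversed. Of 10 differences between the depleted media 0 kept their call under all. A block for runs of library numbers gave 1476 calls for the depleted media against Plasmax, 1859 for Plasmax-TE, 372 for Plasmax-TE+Fe and 152 between the depleted media. Both depleted media as 1 group gave 423 calls, 391 of them not overlapping. The 9 libraries alone gave 78 for Plasmax-TE+Fe against Plasmax and 0 between the depleted media (835 genes at an unadjusted p under 0.05), where DESeq2 gave 71 and leaving out the 2 outlying libraries 99. The cause of these shifts was not tested. Leaving out each library in turn gave 230 to 888 calls for the depleted media, 223 to 770 of them not overlapping, 477 to 1577 for Plasmax-TE, 31 to 170 for Plasmax-TE+Fe and 0 to 229 between the depleted media (edgeR; 549 to 981 genes at an unadjusted p under 0.05 where the count was 0); the lowest counts against Plasmax came without Plasmax replicate 2. Same-numbered libraries did not all deviate together (correlations -0.433 to 0.146 in 9 pairs, 1 over 0.1). Those of Plasmax with Plasmax-TE were positive (0.083, 0.041 and 0.071). The negative ones all involved Plasmax-TE+Fe, whose replicates 1, 2 and 3 are library numbers 96, 88 and 92. Libraries of the same run of library numbers (85 to 88, 89 to 92, 93 to 96) had correlations of 0.025 to 0.534 in 9 pairs, 3 over 0.1. Those 3 (0.534, 0.217 and 0.377) are the pairs of Plasmax-TE with Plasmax-TE+Fe. With EMEM included, 18 such pairs had correlations of 0.025 to 0.534, 9 over 0.1. Libraries of a run thus deviated together, and the main model held no term for runs. The labels do not say what a run shares. A replicate block gave 686 calls, 535 of them not overlapping, 1024 for Plasmax-TE, 105 for Plasmax-TE+Fe and 19 between the depleted media. Counting metal response element cores in the 250 bases before the start alone left 2 of 2 metallothionein promoters with a match. In weakly expressed genes only large changes could be seen at this depth.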
